A study of Mus musculus with 38 samples.

Results

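The regions described here were the H3K27ac peaks of epidermal stem cells (EpdSCs) that were first called after 2 weeks of SOX9 induction and were called again at 6 weeks. They were 2217 of the 29081 peaks in the week 2 (W2) list, or 7.62% of it. A W2 peak was kept when no peak of the lists before induction (D0) and at week 1 (W1) overlapped it by 1 bp and a peak of the week 6 (W6) list did. The regions were thus chosen by the H3K27ac calls of D0, W1, W2 and W6, and the H3K27ac values of these times are given as a description only. The week 12 (W12) H3K27ac list, the H3K4me1 lists, the culture lists, the DNA sequence and the nearby genes played no part in the choice.

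H3K27ac is an acetyl mark on the tail of histone H3 that is found at active promoters and active enhancers. H3K4me1, a single methyl group on lysine 4 of the same histone, covers enhancers more broadly and can be present before an enhancer is active. SOX9 is a transcription factor of hair follicle stem cells that is normally off in EpdSCs of the interfollicular epidermis. It binds DNA through its HMG domain and contacts other proteins through its transactivation (TA) domain.

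The series held 38 MINT-ChIP libraries of H3K27ac, H3K4me1 and total H3, a method that barcodes the chromatin of several samples before pooled immunoprecipitation. In skin, the sorted cells came from male K14rtTA; TRE-myc-Sox9 mice, in which an activator made from the keratin 14 promoter turns on MYC-tagged Sox9 throughout the skin epithelium when doxycycline (DOX) is given. DOX was started at postnatal day 21 by injection and continued in the feed for 1, 2, 6 or 12 weeks, and D0 was the same genotype before DOX, so the transgenes were carried by every group, the D0 control included. Back skin cells were sorted as CD31/45/117/140a negative, CD49f high, CD34 negative and Ly6A high. The W12 cells differed in a further way, since they came from newborn skin grafted onto female immunocompromised Nude hosts and induced after the grafts had healed. Graft and duration cannot be told apart at W12. The W12 libraries were sequenced in the same pools as replicate 1 of W2, separated by barcode. In culture, Krt14-rtTA EpdSCs carried DOX-inducible WT SOX9, with or without DOX, ΔHMG-SOX9 or ΔTA-SOX9, and only H3K4me1 was measured. Each deposited list merged the replicates and both strengths of nuclease digestion of its group, so every region had 1 value per condition, no spread between replicates could be computed, and no test between conditions was made. Shares carry exact 95% Clopper-Pearson bounds for counting error alone, and peaks that lie close together are not independent.

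The lists were of like length. They held 29081 to 33985 H3K27ac peaks and 69439 to 87287 H3K4me1 domains in skin, and 110589 to 123338 H3K4me1 domains in culture. The background pileup behind the deposited fold values was 0.299 fragments at W1 and 0.677 at W6, with the others between. Start sites of 5 of 6 epidermal marker genes carried an H3K27ac peak from D0 to W6 and 4 of 6 did at W12, with Itga6 missing at every time and Krt5 missing at W12. Start sites of the immune, endothelial, melanocyte and mast cell, and fibroblast markers carried none at any time.

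Letters that SOX proteins bind (AACAAT or ACAATG) and letters that RUNX proteins bind (TGTGGT) recur in the results. Printed here are 4 of the regions that show one or both within 150 bp of the summit. They were chosen after their values were seen, because the *Runx1* regions carried most of the features described here, the *Rab31* region had one of the highest W2 folds, and the *Fst* region had a SOX match close to the summit and a culture domain with WT SOX9 only. Each is 299 bases centred on the W2 summit, read 5′ to 3′ on the plus strand of GRCm38 from RefSeq. Capitals mark SOX and RUNX matches on either strand, and adjoining capitals in CATTGTT are 2 overlapping SOX matches at 1 site. No AP1 match (TGANTCA) fell in these 4 windows. Peak A lies at chr16:92725642-92725940 and peak B at chr16:92738760-92739058, both in introns of *Runx1*, the *Rab31* peak at chr17:65744168-65744466 in an intron of *Rab31*, and the *Fst* peak at chr13:114491346-114491644 between genes.
Runx1 intronic peak A: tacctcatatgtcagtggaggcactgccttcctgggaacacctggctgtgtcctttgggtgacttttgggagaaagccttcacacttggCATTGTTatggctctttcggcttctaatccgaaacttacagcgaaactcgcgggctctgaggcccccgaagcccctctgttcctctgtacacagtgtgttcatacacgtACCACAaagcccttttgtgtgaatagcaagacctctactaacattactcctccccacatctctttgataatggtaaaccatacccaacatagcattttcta
Runx1 intronic peak B: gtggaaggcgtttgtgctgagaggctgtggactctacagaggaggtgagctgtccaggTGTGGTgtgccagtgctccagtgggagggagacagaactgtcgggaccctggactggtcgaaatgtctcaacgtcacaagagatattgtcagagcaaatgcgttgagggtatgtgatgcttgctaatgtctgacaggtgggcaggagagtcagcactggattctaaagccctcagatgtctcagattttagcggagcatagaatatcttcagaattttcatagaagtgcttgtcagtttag
Rab31 intronic peak: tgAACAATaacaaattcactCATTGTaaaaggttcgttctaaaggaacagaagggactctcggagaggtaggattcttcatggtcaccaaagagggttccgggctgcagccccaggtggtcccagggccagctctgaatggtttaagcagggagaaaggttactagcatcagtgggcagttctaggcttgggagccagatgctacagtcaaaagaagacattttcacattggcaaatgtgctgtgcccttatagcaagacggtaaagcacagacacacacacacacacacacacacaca
Fst intergenic peak: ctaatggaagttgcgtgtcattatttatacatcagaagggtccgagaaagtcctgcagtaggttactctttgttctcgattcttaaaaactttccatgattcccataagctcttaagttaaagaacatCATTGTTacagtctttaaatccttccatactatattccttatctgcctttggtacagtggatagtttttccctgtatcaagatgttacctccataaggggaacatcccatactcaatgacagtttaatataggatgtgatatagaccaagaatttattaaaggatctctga

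Peak A had a SOX match 60 bp to the left of the summit and a RUNX match 49 bp to the right of it. Peak B had a RUNX match only, 91 bp to the left. The *Rab31* peak held SOX matches 147 and 129 bp to the left of its summit, facing in opposite directions, and the *Fst* peak held one 21 bp to the left.

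The regions were weak among W2 peaks and of similar strength at W6. The deposited fold was read as the summit fragment pileup over the list's background, with the same constant added to both. It had a median of 5.59 at W2 (interquartile range 4.21 to 6.32) over the 2217 regions and 5.96 at W6 (4.77 to 7.16). The 10186 W2 peaks found in all 5 lists had medians of 12.7, 8.47, 9.82, 11.9 and 7.79 from the D0 to the W12 list. W2 peaks that were likewise first called at W2 but were missing at W6, of which there were 5196, had a W2 median of 4.32. Peaks first called at W1 and still called at W6, of which there were 2534, had medians of 5.39, 6.32 and 6.56 in the W1, W2 and W6 lists. The regions thus stood between the peaks that were gone at W6 and those that had appeared a week earlier.

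Between W2 and W6 the direction of the change depended on the scale. The deposited fold was higher at W6 in 58.5% of the regions (56.5 to 60.6) and in 68.5% of the peaks found at all times. The W6 fold was that of the strongest overlapping W6 peak, whose summit can lie outside the region, and this choice can raise it. The 2217 regions drew on 2183 distinct W6 peaks. The pileup was also divided by each list's own background without the added constant. On that scale the regions' median was 16.4 at W2 and 13.3 at W6. The median log2 difference was −0.26, beside −0.16 for the peaks found at all times. A rise or a fall of the mark from W2 to W6 was therefore not resolved. The W6 fold was more than 2 times the W2 fold in 185 regions (8.34%), and less than 1/2 of it in 30 (1.35%), shares near the 8.36% and 1.58% over all W2 peaks with a W6 peak. The plot of fold over time shows these medians and their spread.

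**Figure D1:**
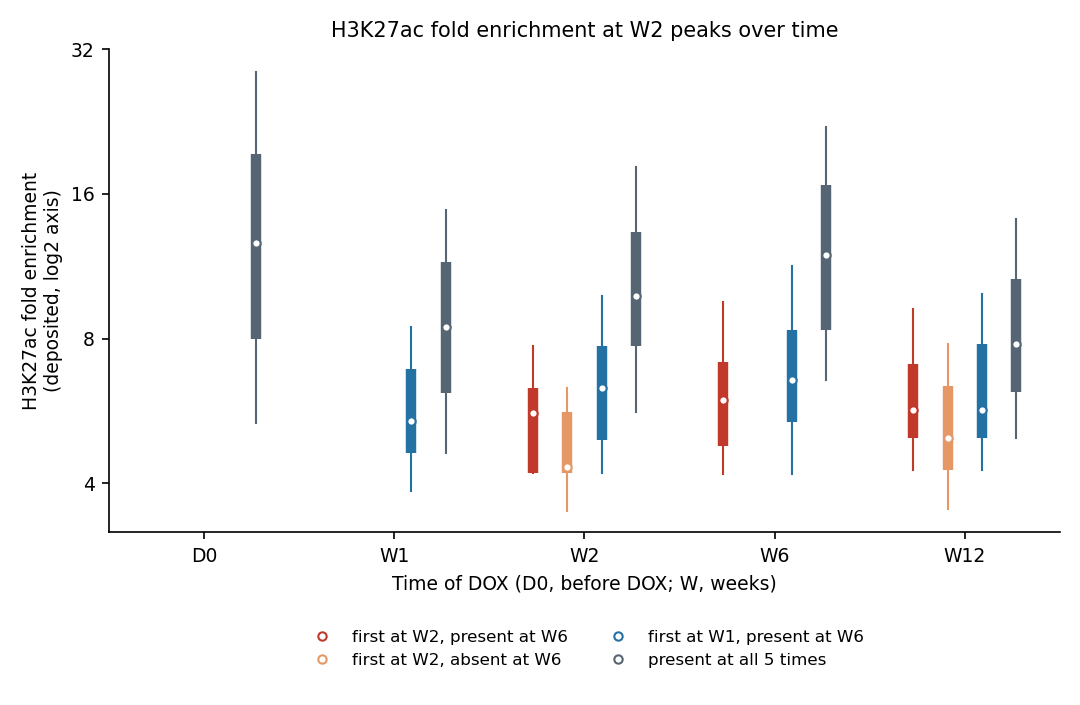
Deposited H3K27ac fold enrichment (log2 axis) at W2 peaks against time of DOX, for the 2217 regions (red), W2 peaks first called at W2 and absent at W6 (orange), first called at W1 and present at W6 (blue), and present in all 5 lists (grey). White points are medians, thick bars the interquartile range and thin lines the 10th to 90th percentiles. The regions' medians (W2 5.59, W6 5.96, W12 5.67) lie below those of the peaks present at all times in each of those lists.

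Many of the regions stood close to the limit of calling. With the W2 pileup rescaled to the background of the other lists, 2061 of the 2217 regions (93.0%) would have reached the smallest pileup called at W1 and 2216 that of D0, but only 436 (19.7%) would have reached 2 times both. An H3K27ac peak of D0 or W1 lay within 100 bp of 4.56% of the regions, whose median W2 fold was 4.91, and within 1000 bp of 639 regions. Conversely, 89 W2 peaks present at W6 were left out for an overlap of 50 bp or less with D0 or W1, with a median W2 fold of 4.91. Among the regions, 65 had a W6 overlap of at most 50 bp, with a median W2 fold of 4.21. A further 106 peaks first called at W2 had a W6 peak within 100 bp but no overlap, and their median W2 fold was also 4.21. The median distance to the nearest D0 peak was 9603 bp and to the nearest W1 peak 6370 bp, and 785 regions (35.4%) had neither within 10000 bp.

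The regions were mostly away from promoters. Their median distance from the nearest start site of any annotated gene, protein-coding or not, was 8954 bp, beside 4681 bp over all W2 peaks. Of the regions, 1568 (70.7%, 68.8 to 72.6) were distal, that is, over 2500 bp from any such site. The share over all W2 peaks was 57.0%. Of the summits, 53.7% lay in introns, 37.1% between genes and 9.16% in exons, beside 54.0%, 29.7% and 16.2% over all W2 peaks. The peaks missing at W6 were farther out, with 82.6% distal and 4.45% in exons. The regions were narrow, at a median of 610 bp against 821 bp in the W2 list. They were spread over all 21 chromosomes, taking from 6.56% of the W2 peaks on chromosome 16 to 9.52% on chromosome 10 among the autosomes and 4.58% (20 of 437) on X. Chromosome Y had 3 of only 16.

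H3K27ac was still called at W12 in 676 of the 2217 regions, or 30.5% (28.6 to 32.5), beside 48.9% of all W2 peaks, and 1541 had no W12 peak. Of the peaks missing at W6 it was 10.4% (9.54 to 11.2), and of those first called at W1 and present at W6 it was 43.1% (41.2 to 45.0). The share followed the strength of the mark. In bins set at the quartiles of the whole W2 list (folds of 4.91, 6.32 and 9.12), it was 25.3% of 1089 regions in the lowest bin, 33.7% of 689, 37.3% of 381, and 44.8% of 58 in the highest. The corresponding shares were 9.68%, 11.5%, 13.9% and 20.8% for the peaks missing at W6, and 30.0%, 34.8%, 52.9% and 68.9% for those first called at W1. At matched W2 strength the regions thus lay above the former in the first 3 bins, with intervals that did not meet, and were close to the latter only in the lower bins. The highest bin held 58 regions, and its interval of 31.7 to 58.5% overlapped that of the peaks missing at W6.

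**Figure D2:**
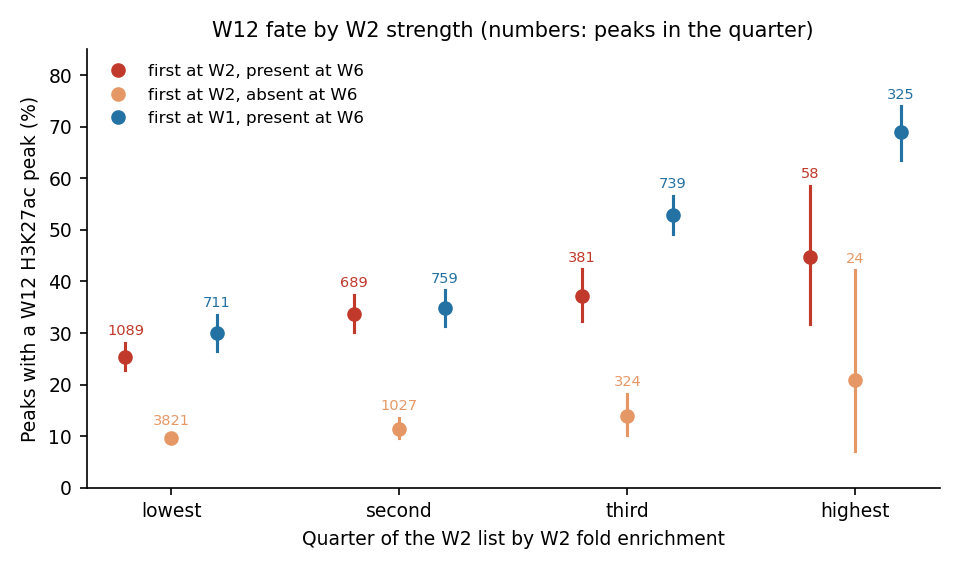
Percent of W2 peaks with an overlapping W12 H3K27ac peak, by bins of W2 fold set at the quartiles of the W2 list, for the 2217 regions (red), the W2-first peaks absent at W6 (orange) and the peaks first called at W1 and present at W6 (blue). Points are shares, lines exact 95% intervals, and numbers the peaks in each bin. The regions rise from 25.3 to 44.8% and lie above the orange points throughout.

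The W6 fold gave a similar order, with W12 peaks at 23.3, 27.2, 33.5 and 41.4% of the regions from the lowest to the highest bin of W6 fold. Distal regions kept the mark in 33.0% (30.6 to 35.4) and those within 2500 bp of a start site in 24.5% (21.2 to 28.0). Of the 185 regions with no H3K4me1 domain at D0, 38.9% (31.9 to 46.3) had a W12 peak, against 29.7% (27.7 to 31.8) of the 2032 that had one. Where a W12 peak was called its median fold was 5.67, and it was above the W2 fold in 59.6% (55.8 to 63.3) of the 676, beside 37.4% over all W2 peaks, 64.5% (347 of 538) of the peaks missing at W6 and 31.1% of those found at all times. The W12 list had the shortest peaks, at a median of 476 bp, and a lower median fold of 4.96 than the other lists. It was also the only H3K27ac list named with a q-value threshold, 0.05, so its calling may have differed. An absent W12 peak therefore does not show that the mark was lost.

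Most regions lay in H3K4me1 domains before they gained H3K27ac. At D0, 2032 of the 2217 (91.7%, 90.4 to 92.8) overlapped one, where the share over all W2 peaks was 94.1%. At W1 it was 95.6% (94.7 to 96.4), beside 94.5% of all W2 peaks, and the W2, W6 and W12 lists covered 97.4%, 98.6% and 97.2%. The regions therefore stood below the whole list at D0 and above it from W1 on. The peaks missing at W6 were at 83.4% at D0, reached 92.8% at W2 and were back at 87.9% by W12. A domain at both D0 and W1 was present in 1990 regions.

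A small class gained H3K4me1 in the first week, a week before the H3K27ac call. It held 130 regions, or 5.86% (4.92 to 6.92), beside 2.85% of all W2 peaks, 7.26% of the peaks missing at W6, 3.71% of the peaks first called at W1 and 0.815% of those found at all times. Of the 130, the domain was called again at W2 in 128, at W6 in 130 and at W12 in 123. The reverse, a domain at D0 and none at W1, was seen in 42 regions (1.89%), beside 2.39% of all W2 peaks. The D0 list was the longest of the skin lists, and with every list shortened to 69439 domains the class grew to 224 regions (10.1%), beside 4.24% of all W2 peaks and 10.5% of the peaks missing at W6. A further 55 regions (2.48%, 1.87 to 3.22) had a domain at neither time, beside 3.09% of all W2 peaks and 9.30% of the peaks missing at W6. Of these 55, 31, 32 and 32 had one in the W2, W6 and W12 lists.

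The domains over the regions were also wider from W2 on. In the 1952 regions that had a domain in all 5 lists, the medians of its width were 5400 bp (D0), 5600 bp (W1), 7000 bp (W2), 7800 bp (W6) and 6400 bp (W12). Over the 25689 W2 peaks with a domain in all 5 lists the medians were 7200, 6800, 7200, 7000 and 6200 bp. The domain was wider at W1 than at D0 in 49.0% (46.8 to 51.3) of the regions, with a median ratio of 1.0, and 40.8% of all W2 peaks. It was wider at W2 than at D0 in 60.0% (57.8 to 62.1) of the regions and 47.7% of all W2 peaks, and wider at W6 than at D0 in 65.6% (63.5 to 67.7) and 43.2%. The peaks missing at W6 had a like widening at W2, at 58.0%, and less of it at W6, at 46.3%. The peaks first called at W1 widened as often as the regions, at 63.5% at W2 and 64.9% at W6. The widths at D0, W1, W2 and W6 come from the same sorted cells as the H3K27ac calls that entered the choice.

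The culture lists gave a separate view of the same places. A domain was called with WT SOX9 and DOX at 1604 of the 2217 regions (72.4%, 70.4 to 74.2), without DOX at 64.2% (62.2 to 66.2), with ΔHMG-SOX9 at 60.0% and with ΔTA-SOX9 at 62.0%, where all W2 peaks had 68.9% and 63.5% for the first 2 lists. All 4 lists covered 1082 regions (48.8%) and none covered 409 (18.4%), beside 48.4% and 22.1% of all W2 peaks. A domain with WT SOX9 that was absent without DOX lay at 312 regions (14.1%, 12.7 to 15.6), beside 11.4% of all W2 peaks, 14.1% of the peaks missing at W6 and 15.6% of those first called at W1. The same count for ΔHMG-SOX9, which lacks the DNA-binding domain, was 102 (4.60%). For ΔTA-SOX9, which lacks the domain that contacts cofactors, it was 138 (6.22%). These were near the 4.20% and 5.39% over all W2 peaks. The only list without DOX was that of the WT SOX9 cells. The mutant gains were therefore counted against another transduced line, without an uninduced control of their own. At 203 regions (9.16%, 7.99 to 10.4) the domain was in the WT SOX9 list alone, beside 7.07% of all W2 peaks. The lists of ΔHMG-SOX9 and ΔTA-SOX9 held no fewer domains than that of WT SOX9, but the ΔHMG-SOX9 list covered fewer bases, 120.1 Mb against 133.1 Mb for WT SOX9 and 133.2 Mb for ΔTA-SOX9. With all shortened to 110589 domains the 3 gains were 13.3%, 4.15% and 5.59%, beside 10.8%, 3.73% and 4.59% of all W2 peaks, and lists of equal covered length were not compared.

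Regions with the early skin gain had a culture gain with WT SOX9 more often than those marked at D0, although most of the culture gains with WT SOX9, 248 of 312, lay at regions with H3K4me1 in skin at D0. Of the 130 regions with H3K4me1 at W1 and not at D0, 51 (39.2%, 30.8 to 48.2) had a culture domain gained with WT SOX9, against 6 (4.62%, 1.71 to 9.78) with ΔHMG-SOX9 and 8 (6.15%, 2.69 to 11.8) with ΔTA-SOX9. Of the 2032 regions with H3K4me1 at D0 the shares were 12.2% (10.8 to 13.7), 4.68% and 6.30%. The gain with WT SOX9 thus differed between the classes by more than the counting error, while those with the mutants were at the same level in both. Over all 829 W2 peaks with H3K4me1 at W1 and not at D0 the shares were 33.4%, 4.95% and 7.84%, so a higher gain with WT SOX9 was also seen over the whole W2 list. A culture domain without DOX was present at 41.5% of the 130 and 66.9% of the 2032. Over only the regions that lacked one, the gain with WT SOX9 was 67.1% of 76 (55.4 to 77.5) against 36.8% of 673 (33.2 to 40.6), beside 46.9% of the 591 such W2 peaks. On this count the mutants were lower in the early H3K4me1 class than at D0-marked regions, at 7.89% (2.95 to 16.4) against 14.1% (11.6 to 17.0) for ΔHMG-SOX9 and 10.5% (4.66 to 19.7) against 19.02% (16.1 to 22.2) for ΔTA-SOX9, with overlapping intervals.

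**Figure D3:**
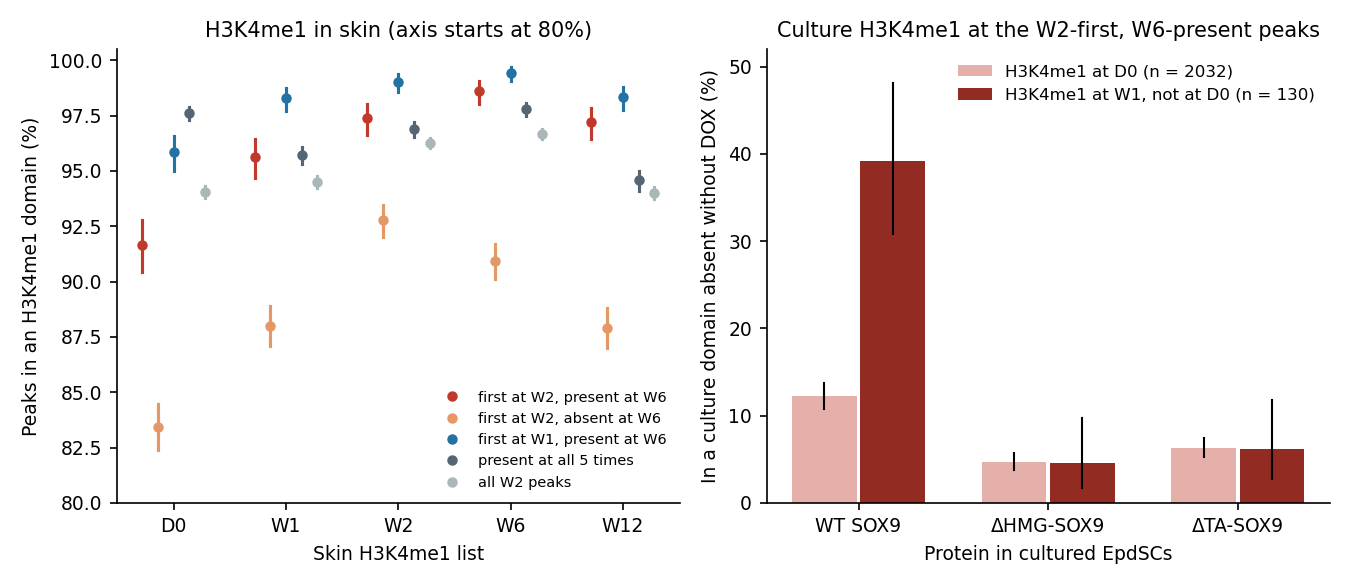
Left, percent of W2 peaks in an H3K4me1 domain of each skin list for the 2217 regions, the comparison sets and all W2 peaks, on an axis that starts at 80%. Right, percent of the regions in a culture domain that was absent in the WT SOX9 cells without DOX, for WT SOX9, ΔHMG-SOX9 and ΔTA-SOX9. Bars are split by H3K4me1 at D0 (light) and at W1 but not D0 (dark), and lines are exact 95% intervals. The dark WT SOX9 bar stands at 39.2%, above the 5 others at 4.62 to 12.2%.

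The sequence of the regions was searched from 150 bp left to 150 bp right of the W2 summit, on both strands, for short letters of 14 motifs. A match describes letters in the window and is not a binding site. A SOX match was present in 505 regions, or 22.8% (21.05 to 24.6), beside 19.4% of all W2 windows. The difference went with position, since at distal regions it was 24.7% and at distal W2 peaks 24.0%. It also went with base composition. From the lowest to the highest bin of GC content the regions had 32.4, 23.9, 16.8 and 8.66% and all W2 peaks had 31.8, 22.9, 15.4 and 7.0%. The windows 1500 bp to the left and right of the summit held SOX letters in 26.5% and 23.9% of regions, so the summit held no more of them. This comparison was not matched for GC content. Mean GC was 49.1 and 48.9% in the 100 bp bins just left and right of the summit, and 45.4 and 45.5% in those at 1450 bp. Among the peaks missing at W6, 26.6% had a SOX match around the summit.

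AP1 letters, which FOS and JUN dimers bind, were placed around the summit. They were in 11.7% (10.4 to 13.1) of the windows, beside 9.38% of all W2 windows and 9.43% and 9.56% of the flanking windows. In bins of 100 bp the share of regions with a match was 3.92% and 3.34% just left and right of the summit, 6.68% and 6.50% at 250 bp on either side, and 2.84% and 3.43% at 1450 bp. AP1 letters thus flanked the summit. The peaks found at all times had the same shape, with 5.39% and 5.33% at 250 bp. SOX and RUNX letters showed no such shape, and SOX stayed between 8.21 and 10.3% in every bin.

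**Figure D4:**
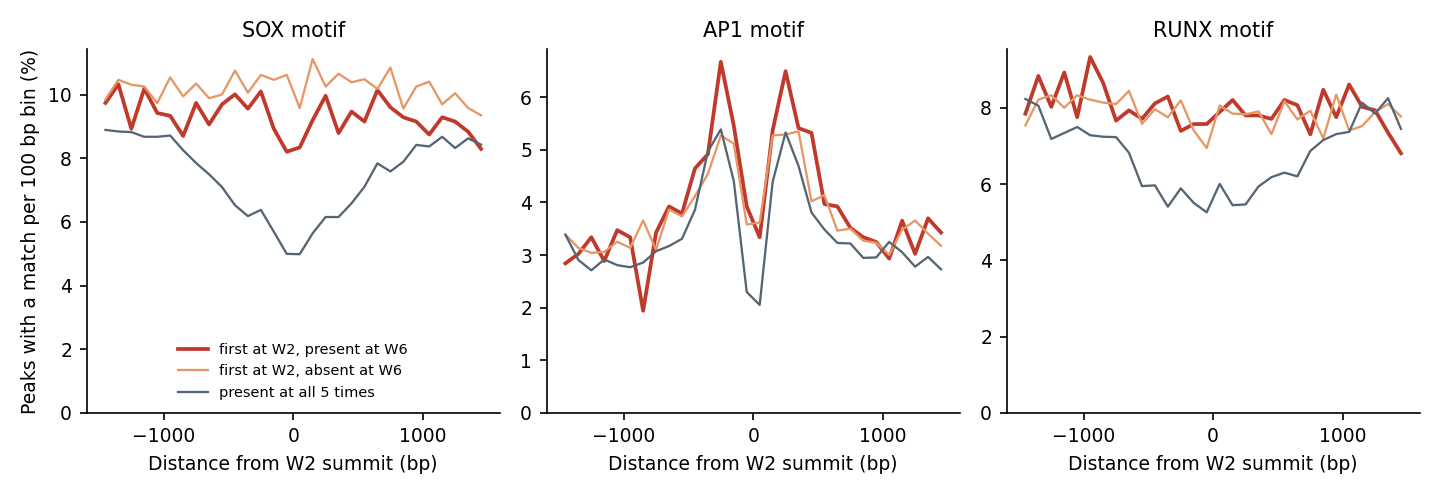
Percent of peaks with a SOX, AP1 or RUNX match in each 100 bp bin against distance from the W2 summit, for the 2217 regions (red), the W2-first peaks absent at W6 (orange) and the peaks present at all times (grey). AP1 in the regions peaks at 6.68 and 6.50% in the bins at 250 bp on either side of the summit, while SOX stays between 8.21 and 10.3%.

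Of the other motifs, RUNX letters stood above the list as a whole and KLF/SP letters below it. The rest were closer to it in percentage points. RUNX letters were in 21.4% (19.7 to 23.2) of the windows, beside 18.1% of all W2 windows. The windows 1500 bp to the left and right of the summit held them in 21.1% and 20.2% of regions, so the summit held about as many. That comparison was not matched for GC content. At distal regions they were in 23.4% (21.3 to 25.6), against 20.97% of distal W2 peaks. The TCF/LEF letters CTTTGA were in 18.6% of regions against 18.2% of the list. The letters of GATA factors, AGATAA, were in 13.9% against 12.1%. Those of TEAD, GGAATG, were in 17.8% against 15.7%, and those of NFI, TTGGCA, in 18.1% against 15.8%. The homeobox core TAATTA was in 5.86% against 4.68%. Letters that are common in promoters were fewer. KLF/SP letters (GGGCGG or GGGTGG) were in 33.2% against 39.5%, ETS (GGAAGT) in 18.8% against 20.4% and CTCF (CCCTCTNG or AGGGGGC) in 9.65% against 11.0%. NF-kB (GGANTTTCC) had 1.62% against 1.29%, and p63 (CATG, any 3 bases, CATG) 0.586% against 0.523%. A pair of inverted SOX letters 3 to 5 bp apart was found in none of the 2217 windows (at most 0.166%) and in 0.0860% of all. The median GC content was 48.2%, beside 49.8% in the W2 list. Regions with a W12 peak had AP1 letters in 14.2% (11.7 to 17.1) and those without in 10.6% (9.09 to 12.2). RUNX letters were in 24.4% and 20.1%, and SOX letters in 25.3% and 21.7%, each with overlapping intervals. TCF/LEF letters were in 18.3% and 18.8%, and GATA letters in 13.2% and 14.2%. Regions with a W12 peak were also more often distal, at 76.5% against 68.2%, and these shares were not matched for position.

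By nearest start site the regions belonged to 1654 protein-coding genes, 15.2% of the 10893 genes nearest to any W2 peak. Most had 1 region, 230 had 2 and 128 had 3 or more. The nearest gene is a label of place, and expression was not analysed here.

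The 10 genes with the most regions were *Dusp6*, *Runx1*, *Phlda1*, *Nfib*, *Kank1*, *Efna5*, *Boc*, *Ppm1h*, *Gm26657* and *Tenm4*. *Runx1*, a transcription factor of hair follicle stem cells, had 7 of its 29 W2 peaks among the regions. Their folds at W2 were 9.82, 6.32, 6.28, 5.61, 4.81, 4.21 and 3.51, and at W6, in the same order, 7.16, 15.5, 5.21, 3.58, 8.50, 4.17 and 7.16. A W12 peak was called at 5 of the 7, with folds of 4.81 to 10.6. All 7 were in an H3K4me1 domain at W1 and 4 at D0. The other 3, at 28322 and 41334 bp from a start site in introns (the printed peaks A and B) and at 200273 bp between genes, were also the 3 with a culture domain in the WT SOX9 list alone. Of the 10 genes, *Gm26657*, an uncharacterised gene, had as many regions with a W12 peak, 5 of 6, and the 8 others had 1 to 3.

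*Dusp6*, a phosphatase that switches off ERK, had 7 regions of 14 W2 peaks. Its region 2654 bp from a start site, in an exon, had a fold of 4.21 at W2 and no W12 peak. The strongest W6 peak that overlapped this region had a fold of 20.3. *Phlda1*, a gene known in hair follicle stem cells, had 6 of 11 with W2 folds of 4.21 to 7.72, and 2 of them lacked H3K4me1 at D0. *Nfib*, a hair follicle stem cell transcription factor, had 6 of 56, all with H3K4me1 at D0. *Boc*, a Hedgehog co-receptor, had 6 of 17, all in D0 domains and only 1 in a culture domain with WT SOX9. *Efna5*, an ephrin ligand, had 6 of 30, and 3 of the 6 were in a D0 domain. *Kank1*, a cytoskeletal adaptor, had 6 of 33, with 1 W12 peak, at a fold of 13.5. *Tenm4*, a transmembrane adhesion protein, had 5 of 21, all between 177443 and 215696 bp from its start site. Of these 5, 2 had H3K4me1 at D0.

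**Figure D5:**
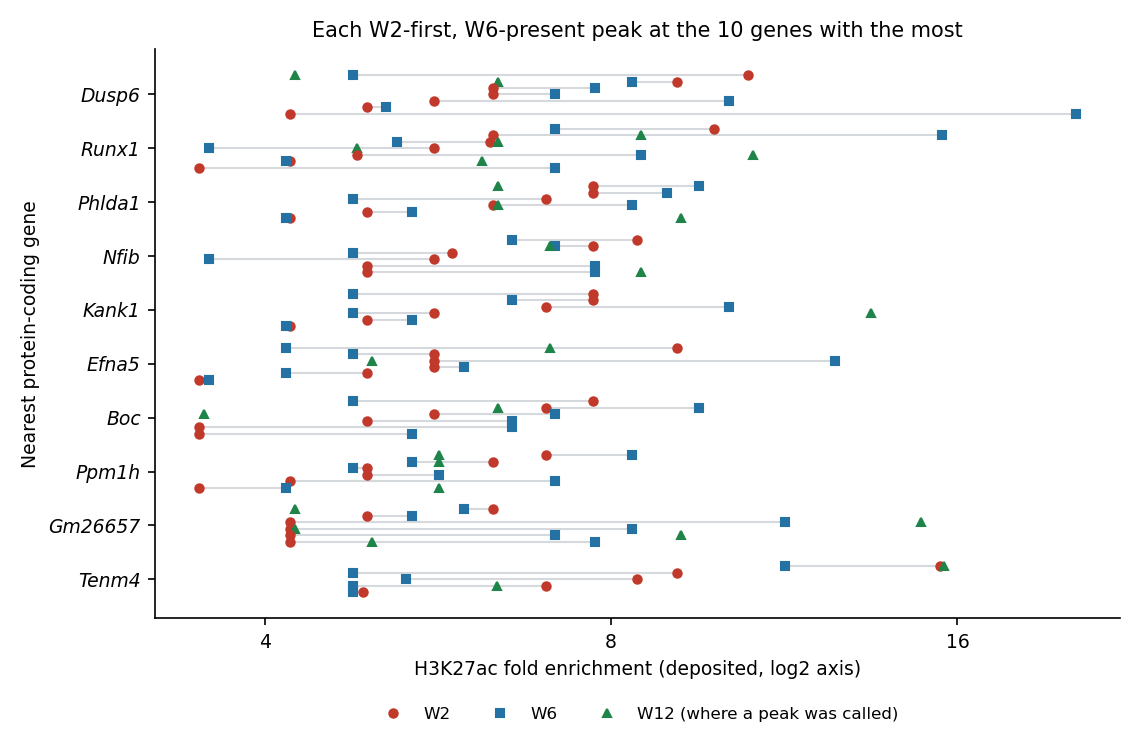
Deposited H3K27ac fold (log2 axis) at W2 (red circles), W6 (blue squares) and, where a peak was called, W12 (green triangles) for each region at the 10 genes with the most regions. Each row of points is 1 region, and grey lines join W2 to W6. W6 values lie on both sides of W2 at each of these genes except *Tenm4*, where all 5 are lower, and the highest W6 value is the *Dusp6* region at 20.3.

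Genes of 9 lists held 116 regions of 1062 W2 peaks, or 10.9% (9.11 to 13.0) beside the 7.62% of the whole W2 list. They lay at 56 of 151 listed genes, and 41 of the 116 (35.3%, 26.7 to 44.8) had a W12 peak. Genes with many W2 peaks weigh most in such counts. Peaks missing at W6 and peaks first called at W1 were counted at the same genes. They were 72 and 30 of 227 W2 peaks at hair follicle transcription factors, and 33 and 12 of 137 at follicle markers. Hedgehog genes had 12 and 9 of 69, Wnt genes 34 and 18 of 153, and RUNX genes 8 and 11 of 41. The whole W2 list had 5196 and 2534 of 29081. High shares at hair follicle transcription factors were thus not particular to the regions.

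Hair follicle transcription factors had 29 regions of 227 W2 peaks (12.8%, 8.73 to 17.8). Beside *Runx1* and *Nfib* these were *Sox9* with 4 of its 33 W2 peaks, and *Nfatc1* and *Tcf7l2* with 3 each. *Barx2* and *Foxc1* had 2 each, and *Gli2* and *Vdr* 1 each. The 4 at *Sox9*, whose endogenous gene has distant enhancers, lay 13933 to 435047 bp from its start site. Their folds were 10.5, 5.61, 4.91 and 4.21 at W2 and 8.95, 4.77, 8.95 and 10.7 at W6. A W12 peak was called at 3 of the 4, and all had H3K4me1 at D0. The transgene carries the *Sox9* coding sequence and none of these places lies in it.

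Hair follicle and outer root sheath markers had 20 of 137 (14.6%, 9.15 to 21.6). *Fst*, which encodes the activin antagonist follistatin, had 5 of 11 W2 peaks, and *Lrig1*, a stem cell marker of the upper follicle, 4 of 33. *Epcam*, an adhesion molecule, had 3, *Dkk3* and *Tnc* 2 each, and *Cd34*, *Col17a1*, *Postn* and *Sfrp1* 1 each. The 5 regions at *Fst* had W2 folds of 9.12, 7.72, 4.91, 4.91 and 3.51 and W6 folds of 4.77, 6.56, 6.56, 4.77 and 4.17, and 1 had a W12 peak. The *Epcam* intron region, 2321 bp from a start site, had folds of 4.91, 23.3 and 7.79 at W2, W6 and W12. None of the 4 at *Lrig1* had a W12 peak.

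Hedgehog genes had 11 of 69 (15.9%, 8.24 to 26.7), at 3 genes only. Beside the 6 at *Boc* these were 4 at *Gas1*, another co-receptor, and 1 at *Gli2*, a transcription factor that acts at the end of the pathway. Wnt genes had 20 of 153 (13.1%, 8.17 to 19.5) at 14 genes, with 3 at *Fzd7*, a receptor, 3 at *Tcf7l2*, 2 at *Lrp6*, a co-receptor, both with a W12 peak, and 2 at *Dkk3*. *Axin2*, *Fzd1*, *Fzd2*, *Fzd5*, *Fzd8*, *Lrp5*, *Sfrp1*, *Wif1*, *Wnt6* and *Wnt7b* had 1 each, none with a W12 peak. RUNX genes had 8 of 41 (19.5%, 8.82 to 34.9), namely the 7 at *Runx1* and 1 over a start site of *Runx2* with folds of 6.32, 9.54 and 8.50 at W2, W6 and W12.

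The remaining lists were near the whole. TGF-beta genes had 8 of 93 (8.60%, 3.79 to 16.2), at *Inhba*, *Tgfbr2*, *Tgfbr3*, *Ski* and *Tgfb3*. Epidermal identity genes had 19 of 232 (8.19%, 5.0 to 12.5). *Trp63*, the regulator of stratified epithelium, had 5 of its 39 W2 peaks. There were 3 at *Klf4*, 2 each at *Gata3*, *Notch3* and *Tfap2a*, and 1 each at *Grhl1*, *Klf5*, *Krt14*, *Krt5* and *Tfap2c*. The regions near *Krt14* and *Krt5*, the keratins of the basal layer, were both in a culture domain of the WT SOX9 list alone. Cytoskeleton, adhesion and matrix genes had 13 of 163 (7.98%, 4.31 to 13.3). Of these, 4 were at *Actn1*, an actin crosslinker, with W2 folds of 11.9, 8.42, 7.72 and 4.21, and all 4 had a W12 peak. *Cd44* had 3, *Itgb6* 2, and *Itga3*, *Lamb3*, *Tpm1* and *Vcl* 1 each. AP1 genes had 2 of 50 (4.0%, 0.488 to 13.7), 1 each near *Batf* and *Fos*.

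The 10 regions with the highest W2 fold had values of 13.3 to 18.9, and 7 of them kept a W12 peak. The first lay 141042 bp from *Gas1* and had folds of 18.9, 8.95 and 9.92 in the W2, W6 and W12 lists. The region nearest to *Avpr1a*, a vasopressin receptor gene, had 15.4 at W2, 14.9 at W6 and no W12 peak. The strongest at *Tenm4* had 15.4, 11.3 and 15.6. These 3 were in D0 domains and in all 4 culture lists. The others lay nearest to *Pkd1l1*, *Pla2g7*, *Kbtbd8*, *Auh*, *Rab31*, *Tead1* and *Ttc23*. *Rab31*, a GTPase of vesicle traffic, had 14.0, 16.9 and 9.21 in the W2, W6 and W12 lists, and like *Ttc23* it had an H3K4me1 domain at W1 and none at D0. Only the regions at *Pla2g7* and *Tead1*, a partner of YAP, lay within 2500 bp of a protein-coding start site, at 592 and 534 bp from the peak edge. Without a W12 peak the strongest after those at *Avpr1a*, *Pkd1l1* and *Auh* included one near *Ncoa7*, at 12.6 at W2 and 16.7 at W6.

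In the class with H3K4me1 at W1 and not at D0, the 5 strongest at W2 were near *Rab31*, *Ttc23*, *Fgd6*, *Ccn2* and *Myh4*, with W2 folds of 14.0, 13.3, 12.6, 11.9 and 9.82. *Fgd6* had a culture domain in the WT SOX9 list alone, and the 4 others were in all 4 culture lists. All but the region near *Ccn2*, a secreted matrix protein gene, had a W12 peak. Of the 55 with a domain at neither time, the strongest were near *Pdia4*, *Phyh*, *Tenm4*, *Ube2e2* and *Mxd4*, with W2 folds of 11.2, 9.12, 9.12, 7.72 and 7.72. Those at *Ube2e2* and *Mxd4* overlapped a start site and had GC contents of 69.1% and 71.4%. In the WT SOX9 list alone, the strongest were near *Fgd6*, *Tex44*, *Gm3045*, *Runx1* and *Fstl4*, with W2 folds of 12.6, 10.5, 9.82, 9.82 and 9.12, and of these *Fgd6* and *Gm3045* had a W12 peak.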

How the data were processed

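MINT-ChIP was done on sorted EpdSCs of skin and on cultured EpdSCs. Per the paper and the labels, the authors separated reads by barcode, trimmed them with Skewer, aligned them to GRCm38 with Bowtie2 2.2.9, removed duplicates with Picard, merged replicates with SAMtools 1.9, and called H3K27ac peaks with MACS2 2.1.1 and H3K4me1 domains with epic2. The deposited H3K27ac lists give a score, a fold enrichment (a ratio to the background) and a −log10 p-value for each peak. The culture lists give the same for broad peaks. In the deposited H3K4me1 lists of skin the authors give a p-value and a score for each domain. The caller of the culture lists is not given in the sources used here. All of these values are pooled over replicates. Read depth is unknown, and no unit here is a count.

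Intervals were compared with pandas 2.3.3 and NumPy 2.4.6 in Python 3.11.15 on 21 chromosomes, with 1 bp as the least overlap, and at W6 and W12 the strongest overlapping peak gave the fold. Fold depends on the background that the caller set and on a constant added to pileup and background alike. The pileup over a list's background was therefore used beside it. The background was solved from the lowest values as 1 value per list, which gave whole pileups for 83.5 to 96.1% of peaks. Start sites, exons and introns came from GENCODE M21, and sequence came from the RefSeq GRCm38 assembly. Distances to start sites ran from the nearest edge of a peak. They covered all genes for the distal share and protein-coding genes for named regions and genes. Every interval fell within its chromosome. Motifs were searched as letters within 150 bp of the summit. Intervals on shares came from SciPy 1.17.1 and figures from Matplotlib 3.10.9. The functions were tested on simulated intervals and sequences.

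Named regions were the 10 with the highest W2 fold, and the 5 highest in each of several classes, namely those without a W12 peak, those with H3K4me1 at W1 and not D0, those with it at neither time, and those in the culture list of WT SOX9 alone. A region that this rule names is not reported here. Named genes were the 10 with the most regions and each gene of the 9 lists that had a region. The regions, lists and classes were chosen with earlier results of these data known, so no choice is independent of them. No comparison was tested, since each condition had 1 merged list. Libraries of total H3 were not used here.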

Additional observations from a re-analysis of the deposited data

How the results depend on the processing

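Of 65 values recomputed for 12 results under 13 alternatives, 36 stayed within a band around the main value and 29 fell outside it. The band was the 95% counting interval for shares and a 95% interval of the median for median folds. For counts it was fixed and wide, at 1478 to 3325.5 regions and 1103 to 2481 genes. The 1578 regions without a D0 or W1 peak within 1000 bp and the 1289 genes within 50000 bp fell inside it. With an overlap of at least 50% of the shorter interval, 26.0% had a W12 peak, 90.4% H3K4me1 at D0, 93.5% at W1, and 68.0% were distal. With a W2 score above the list median 439 regions were left, of which 38.3% had a W12 peak, 89.5% H3K4me1 at D0, 8.66% H3K4me1 at W1 and not D0, and 74.3% were distal, with median folds of 7.72 at W2 and 6.56 at W6. With a W2 pileup of at least 2 times the smallest called at D0 and W1, 436 were left, with 38.5%, 89.4%, 8.72% and 74.1% for the same shares and the same medians of 7.72 and 6.56. Without regions that had a D0 or W1 peak within 1000 bp, 89.3% had H3K4me1 at D0, 94.6% at W1, 7.48% at W1 and not D0, and 72.9% were distal. A distal limit of 1000 bp gave 79.1% and of 10000 bp 47.4%. SOX letters were in 7.76% of windows of 50 bp on each side of the summit, in 35.9% with 250 bp and in 42.3% of whole peaks, by the change of length. H3K4me1 lists of equal length gave 86.7% at D0 and 10.1% at W1 and not D0. The stronger regions thus had more W12 peaks and more H3K4me1 gains, and the cause was not tested. No paired analysis was possible because each list merges its replicates and its columns carry none. Leaving out a replicate could not be done for the same reason. The alternatives with matched bins, distal peaks and culture lists of equal length were added after seeing the data. W12 calls rest on a list with shorter and weaker peaks.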
